A study of Mus musculus with 22 samples.

Results

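The 10 genes described here encode paired activating and inhibitory receptors of myeloid cells. They were chosen by symbol: Pirb, Lilra6, Pira2 and Pira6 (paired immunoglobulin-like receptors, PIR), Cd300a, Cd300lf, Cd300lb and Cd300ld, and Cd200r3 and Cd200r4. The choice was made with earlier results of these data known. Counts of members beside shares of all genes therefore describe the set and do not test it. All 10 were found among the 24982 gene lines of each of 22 deposited count tables, from bone marrow eosinophils of 4 maturation stages. Wild-type C57BL/6 mice were given 400 ng IL-33 into the peritoneum on 7 days, and 3 daily injections of 400 µg antibody that began with the last IL-33 dose. The antibody was anti-IL5 (11 libraries), which neutralises interleukin-5, or its isotype control (11 libraries). Both arms thus carry IL-33, and no library comes from an untreated mouse. Marrow was depleted of cells bearing Ly6G, CD90.2, NK1.1 or CD45R. Stages I (earliest) to IV were then sorted to at least 95% purity by staining for PIR-A/B and CD200R3 along with CD117, CD55, Siglec-F, F4/80 and CD29. Each treatment has 3 libraries at stages I, III and IV and 2 at stage II. Age and sex of the mice are not given in the labels, and no label says whether libraries with the same replicate number came from 1 mouse. The p-values therefore measure the spread between these samples, which may be technical.

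Paired receptors come as activating and inhibitory relatives, which often share ligands. Inhibitory members carry tyrosine motifs in the cytoplasmic tail that recruit phosphatases such as Ptpn6, while activating members have short tails and signal through the adaptors Fcer1g or Tyrobp and the kinase Syk. Inhibitory receptors of these families are known to modulate activation, migration or survival of mouse eosinophils. Pirb is the inhibitory PIR and binds MHC class I molecules. Pira2 and Pira6 belong to the activating PIR-A group, and the mouse gene listed as Lilra6, which RefSeq gives the synonym Pira3, is counted with them here. Cd300a and Cd300lf are inhibitory receptors for lipids exposed on dying cells, and Cd300lb and Cd300ld are activating relatives. Cd200r3 and Cd200r4 are activating relatives of the CD200 receptor Cd200r1, and CD200R3 protein is best known from basophils and mast cells.

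Promoters of 7 members are shown because they make visible which genes are close copies and how the pair Cd300ld and Cd300lf differs. By symbol, 9 of the 10 genes matched RefSeq promoters (GRCm38.p6, the build called mm10), which run from 250 bases before to 50 after the start. Sequences run 5′ to 3′ on the strand of the gene. In the first 5, capitals mark AGGAAGT, a word of the kind bound by the ETS factor PU.1. In the last 2 they mark GATAA, a word of the GATA factors. Where that word lies on the opposite strand, its reverse complement is in capitals. The windows are chr7:3720333-3720632 for Pirb, chr7:3915452-3915751 for Lilra6, chr7:3845002-3845301 for Pira2, chr11:114989837-114990136 for Cd300ld and chr11:115133943-115134242 for Cd300lf, all on the minus strand. Those of Cd200r3 (chr16:44943428-44943727) and Cd200r4 (chr16:44820478-44820777) are on the plus strand. The Cd200r4 window lies inside the gene as placed by GENCODE M21 (chr16:44811733-44839150), an annotation that starts the gene further upstream.
Pirb: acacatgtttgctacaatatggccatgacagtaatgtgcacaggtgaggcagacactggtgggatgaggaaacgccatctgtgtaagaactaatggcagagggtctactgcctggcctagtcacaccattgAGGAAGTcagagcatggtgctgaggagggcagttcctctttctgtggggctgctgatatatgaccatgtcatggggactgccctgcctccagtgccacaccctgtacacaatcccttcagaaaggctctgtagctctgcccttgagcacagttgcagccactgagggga
Lilra6: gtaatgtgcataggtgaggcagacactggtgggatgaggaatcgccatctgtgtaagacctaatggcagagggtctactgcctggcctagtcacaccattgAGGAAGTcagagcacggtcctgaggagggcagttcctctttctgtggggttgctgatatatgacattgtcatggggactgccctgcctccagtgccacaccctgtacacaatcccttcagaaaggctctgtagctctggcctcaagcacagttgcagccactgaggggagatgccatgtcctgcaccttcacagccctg
Pira2: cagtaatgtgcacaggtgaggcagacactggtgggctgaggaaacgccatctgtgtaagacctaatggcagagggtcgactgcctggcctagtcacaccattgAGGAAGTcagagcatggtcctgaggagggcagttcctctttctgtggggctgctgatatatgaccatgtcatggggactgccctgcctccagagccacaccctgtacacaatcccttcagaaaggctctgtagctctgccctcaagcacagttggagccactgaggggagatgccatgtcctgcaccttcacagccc
Cd300ld: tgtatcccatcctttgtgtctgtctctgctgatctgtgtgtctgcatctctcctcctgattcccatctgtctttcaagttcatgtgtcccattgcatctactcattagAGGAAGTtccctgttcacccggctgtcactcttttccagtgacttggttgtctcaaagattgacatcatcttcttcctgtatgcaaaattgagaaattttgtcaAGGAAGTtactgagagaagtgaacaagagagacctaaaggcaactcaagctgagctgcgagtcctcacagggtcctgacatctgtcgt
Cd300lf: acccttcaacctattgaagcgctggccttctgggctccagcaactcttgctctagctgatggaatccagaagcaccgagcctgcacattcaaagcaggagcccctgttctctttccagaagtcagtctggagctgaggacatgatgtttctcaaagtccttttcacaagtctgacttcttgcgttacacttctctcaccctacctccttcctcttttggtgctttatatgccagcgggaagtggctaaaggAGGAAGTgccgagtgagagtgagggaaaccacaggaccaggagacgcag
Cd200r3: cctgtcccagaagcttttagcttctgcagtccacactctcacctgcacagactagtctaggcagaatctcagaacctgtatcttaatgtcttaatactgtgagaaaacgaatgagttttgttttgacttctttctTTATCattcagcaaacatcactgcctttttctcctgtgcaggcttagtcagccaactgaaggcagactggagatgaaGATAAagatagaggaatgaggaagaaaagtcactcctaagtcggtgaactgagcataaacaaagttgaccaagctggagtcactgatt
Cd200r4: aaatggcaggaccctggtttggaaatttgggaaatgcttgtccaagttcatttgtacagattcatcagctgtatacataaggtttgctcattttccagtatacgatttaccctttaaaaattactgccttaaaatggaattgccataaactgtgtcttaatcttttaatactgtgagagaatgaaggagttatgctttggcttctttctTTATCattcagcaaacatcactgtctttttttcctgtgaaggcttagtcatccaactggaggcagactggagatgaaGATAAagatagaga

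The 3 PIR promoters were near copies. Pira2 and Pirb had the same base at 97.1% of 272 aligned positions, Pira2 and Lilra6 at 96.3%, and Pirb and Lilra6 at 95.9% of 270. Cd200r3 and Cd200r4 shared 88.3% of 163 aligned positions. Cd300ld and Cd300lf shared 63.2% of 76, near the 66.2% of 74 for Pira2 and Cd300lf, which belong to different families. AGGAAGT, searched on both strands, was found once in each of the 3 PIR promoters and in Cd300lf, at 2 places in Cd300ld, and in 9.35% of all 32851 promoters of this length. GATAA was found at 2 places each in Cd200r3 and Cd200r4, and in 25.4% of all promoters. None of the 9 held TTNNGCAAT, a C/EBP word found in 2.18% of promoters, or TTCNNNGAA, a STAT word found in 8.30%, and no match overlapped one of another motif. Cd300a and Cd300lb held no match to any of the 4 words in their windows. A match describes letters, not binding.

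The genes lie in 3 clusters (GENCODE M21 on mm10). Pirb (chr7:3711409-3720391), Pira2 (chr7:3836812-3845051) and Lilra6 (chr7:3908280-3915503) are on the minus strand. Cd200r4 (chr16:44811733-44839150) and Cd200r3 (chr16:44943678-44981380) are on the plus strand. Cd300a (chr11:114890041-114904654, plus strand) is followed by Cd300lb (chr11:114922781-114934386), Cd300ld (chr11:114982274-114989922) and Cd300lf (chr11:115116214-115133992) on the minus strand. Of the exonic 50-base words of Pira2, 93.0% also occurred in another gene, and 82.6% occurred in the gene model Gm15922. The share was 34.0% for Pirb, 31.3% for Lilra6 and between 0% and 4.94% for the Cd300 and Cd200r genes. Levels of single PIR rows are therefore uncertain, since counting may have split or dropped reads of near copies. Of 7 PIR-A rows in the tables, 4 held no count in any library.

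Libraries held 7161264 to 14781250 gene counts, and the floor used here, 3 counts, equals 0.222 to 0.411 CPM (counts per 1e6 gene counts, scaled by TMM, a factor per library that evens out composition). The 10 eosinophil markers were all detected in every library. Prg2 and Epx held the most counts of them, and Ccr3 ran from 2.50 to 3322 CPM over the libraries. The 10 markers summed to 41779 to 54351 CPM at stages I and II under anti-IL5, against 43648 to 68191 CPM in isotype libraries. At stage III the sums were 26609 to 31932 CPM under anti-IL5, against 42600 to 49570 CPM in isotype libraries, without overlap. At stage IV the sums were 9167 to 10328 CPM under anti-IL5, against 10739 to 12119 CPM in isotype libraries. The first principal component of 12377 other genes held 62.2% of the variance and followed the stages. On it, anti-IL5 libraries lay nearer to stage IV at stage I (-99.2 ± 5.10, against -114 ± 5.64 in isotype libraries, mean ± SD), stage II (-52.4 ± 5.04, against -78.4 ± 5.98) and stage III (55.1 ± 10.8, against 16.6 ± 12.9). At stage IV the positions were 114 ± 2.12 under anti-IL5, against 115 ± 1.42. The part of this shift in the treatment differences below was not tested. PIR-A/B and CD200R3 staining set the gates, so stage differences of Pirb, Pira2, Pira6, Lilra6 and Cd200r3 are given as levels with no test. Their anti-IL5 effects, and changes of these between stages, were tested in cells selected by that staining. The part of this selection in them was not tested.

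All 10 genes had their lowest mean at stage I in both arms, and 9 had their highest at stage IV. The gate genes are among them, and the share of all genes with this pattern was not counted. In isotype libraries Pira6 (0.327 and 0.548 CPM) and Cd200r3 (0.456 and 0.580 CPM) were near the floor at stages I and II. Their libraries of these stages overlapped, so a rise between them is not shown. Pirb, the inhibitory PIR, averaged 76.9 ± 23.9, 272.5 ± 25.4, 1001 ± 119.7 and 1044 ± 73.5 CPM at stages I, II, III and IV under anti-IL5 (SD, n = 3, and 2 at stage II, as throughout). In isotype libraries the Pirb means were 24.5 ± 7.43, 161 ± 61.7, 748 ± 66.9 and 1105 ± 42.6 CPM. The mean at stage III was thus near that at stage IV under anti-IL5, and below it in isotype libraries.

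**Figure D1:**
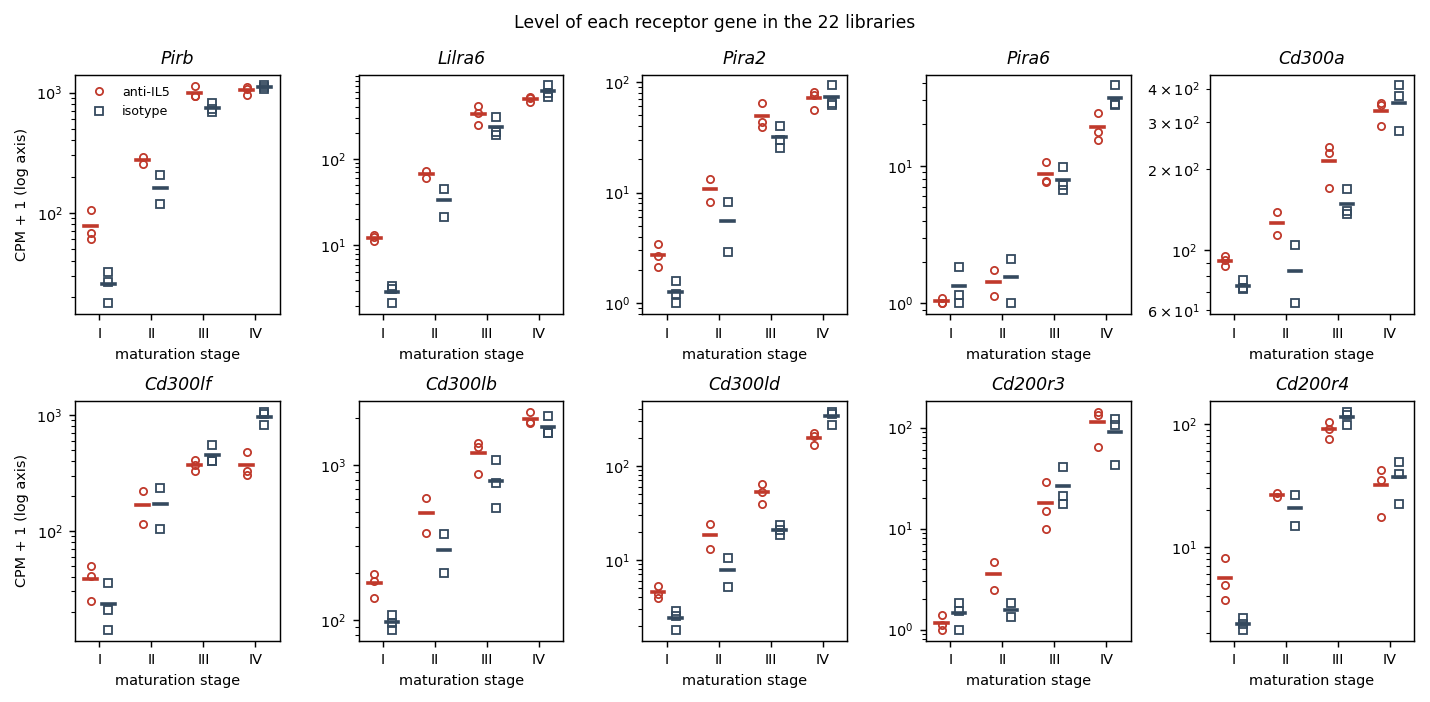
CPM + 1 on a log axis in each of the 22 libraries, by stage, for each gene, with anti-IL5 libraries as red circles left of isotype libraries as dark squares and group means as bars. Pirb runs from 16.7 to 1147 CPM over the libraries, and Cd200r4 is the gene whose highest mean is at stage III.

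The activating PIR rows also had their highest means at stage IV in both arms. Lilra6 averaged 11.3, 66.0, 331 and 493 CPM at stages I to IV under anti-IL5 and 1.92, 32.1, 233 and 601 CPM in isotype libraries. Pira2 averaged 1.75, 9.79, 48.0 and 70.1 CPM under anti-IL5 and 0.267, 4.59, 30.6 and 71.9 CPM in isotype libraries. Pira6 was at or near the floor early, with 1, 8, 246 and 566 counts summed over the libraries of each stage under anti-IL5 and 10, 8, 203 and 1093 in isotype libraries. Per 100 Pirb counts, the PIR-A rows (Pira2, Pira6 and Lilra6 together) held a median of 19.0, 27.9, 41.3 and 55.1 counts at stages I to IV under anti-IL5, and 10.1, 22.2, 32.4 and 63.4 in isotype libraries. Activating counts thus gained on inhibitory ones at each stage in both arms. Because the rows share sequence, this ratio depends on how reads of near copies were assigned.

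Cd200r3, the other gene whose protein set the gates, was seen late and varied between libraries. It summed to 5 counts at stage I and 43 at stage II under anti-IL5, against 16 and 9 counts in isotype libraries. At stage IV its levels were 143, 132 and 62.6 CPM under anti-IL5, against 105, 41.8 and 121 CPM in isotype libraries. At stage III they were 8.83, 27.8 and 14.0 CPM under anti-IL5, against 19.9, 16.4 and 39.3 CPM in isotype libraries. The arms overlapped at both stages.

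The 5 members that no gate used rose between stage I and stage IV in both arms: all 5 passed the test under anti-IL5 (63.5% of all 12387 genes tested did, in either direction) and all 5 in isotype libraries (66.2%). Their median log2 difference was 3.30 under anti-IL5 and 4.68 in isotype libraries, beside medians of -0.06 and -0.04 over all genes. Scaling to total counts alone moved the median of all genes by -0.42 in these comparisons, and no direction of the 5 changed. The sequence of steps differed among the genes, as the plot of levels by stage shows.

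Cd300a, an inhibitory receptor, had the smallest range of the 5. It averaged 90.6 ± 4.01, 125 ± 17.6, 213 ± 38.2 and 329 ± 35.5 CPM at stages I to IV under anti-IL5 and 72.8 ± 2.98, 82.9 ± 28.9, 147 ± 17.9 and 354 ± 69.3 CPM in isotype libraries. Its log2 difference between stages IV and I was 1.86 ± 0.18 (SE) under anti-IL5 (edgeR quasi-likelihood test with Benjamini-Hochberg adjustment, adjusted p = 1.61e-08) and 2.28 ± 0.19 in isotype libraries (edgeR adjusted p = 7.06e-10). The first step, stage II over stage I, did not pass the test in either arm (edgeR adjusted p = 0.139 under anti-IL5 and 0.625 in isotype libraries). In the isotype arm this step was log2 0.19, and -0.23 without isotype stage II replicate 1.

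Cd300lb, an activating receptor, was the most abundant of the 9 genes per kilobase of exon at every stage. It averaged 171 ± 30.0, 485 ± 176 (n = 2), 1187 ± 270.8 and 1984 ± 189.7 CPM under anti-IL5 and 95.8 ± 10.9, 279 ± 111, 788 ± 278 and 1757 ± 270.3 CPM in isotype libraries. Each of its 3 steps passed the test in both arms, with log2 differences of 1.51, 1.29 and 0.74 under anti-IL5 and 1.54, 1.50 and 1.16 in isotype libraries. The last step under anti-IL5 (edgeR adjusted p = 0.0371) was lost when any of 5 of the 6 libraries was left out.

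Cd300ld, an activating receptor, had the widest range of the 5. Its levels under anti-IL5 were 4.26, 2.95 and 3.31 CPM at stage I, 22.9 and 11.9 at stage II, 38.1, 63.4 and 52.3 at stage III and 208, 221 and 166 at stage IV. In isotype libraries they were 0.813, 1.87 and 1.51 CPM at stage I, 9.45 and 4.19 at stage II, 19.9, 22.4 and 17.3 at stage III and 272, 375 and 355 at stage IV. Every anti-IL5 library lay above every isotype library at stages I to III, and below every one at stage IV. The step between stages III and IV was 1.95 ± 0.26 (log2 ± SE) under anti-IL5 (edgeR adjusted p = 7.48e-06) and 4.07 ± 0.28 in isotype libraries (edgeR adjusted p = 6.77e-10).

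Cd300lf, an inhibitory receptor, had much the same mean at stages III and IV under anti-IL5. Its levels there were 368, 329 and 407 CPM at stage III and 478, 329 and 302 CPM at stage IV. In isotype libraries they were 404, 550 and 404 CPM at stage III and 817, 1068 and 1026 CPM at stage IV. The step between these stages was 0.01 ± 0.33 (log2 ± SE) under anti-IL5 (edgeR adjusted p = 1) and 1.10 ± 0.33 in isotype libraries (edgeR adjusted p = 0.0137, lost without isotype stage III replicate 1 or 3). The difference between these steps did not pass the test (log2 -1.09 ± 0.46, edgeR adjusted p = 0.396), so the steps are not shown to differ.

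Cd200r4 was the member that fell at the end of maturation. It averaged 4.59 ± 2.28, 25.6 ± 1.66, 89.7 ± 14.3 and 30.7 ± 12.6 CPM at stages I to IV under anti-IL5 and 1.37 ± 0.25, 19.7 ± 8.16, 113 ± 14.9 and 35.9 ± 13.4 CPM in isotype libraries. The fall between stages III and IV was log2 -1.55 ± 0.33 under anti-IL5 (edgeR adjusted p = 0.00126) and -1.66 ± 0.33 in isotype libraries (edgeR adjusted p = 4.36e-04). Its relative Cd200r3, which stands in the same cluster, had higher means at stage IV than at stage III in both arms.

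Of the single steps, 4 of the 5 passed the test between stages I and II in each arm (12.4% of all genes under anti-IL5, 10.6% in isotype libraries). All 5 did so between stages II and III (39.5% under anti-IL5, 37.1% in isotype libraries). Between stages III and IV, 3 rose and 1 fell under anti-IL5 (23.8% of all genes called), and 4 rose and 1 fell in isotype libraries (33.6%). Some calls rested on 1 library. The first isotype steps of Cd300lb and Cd300ld were lost without isotype stage II replicate 1, and the second of Cd300a and Cd300lf without replicate 2. Under anti-IL5, the first step of Cd300lb was lost without stage II replicate 1. The second steps of Cd300a and Cd300lf were lost without stage II replicate 2, that of Cd300lf also without stage III replicate 3, and the third of Cd300a without replicate 1 of stage III or IV.

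Per kilobase of merged exons, which corrects for length, the order of the 9 genes with an annotated length changed with stage. At stage I under anti-IL5, Cd300lb stood at 58.6 ± 10.3, Cd300a at 19.1 ± 0.85, Pirb at 17.2 ± 5.35, Cd300lf at 7.30 ± 2.50, Lilra6 at 3.71 ± 0.33, Cd200r4 at 2.25 ± 1.12, Cd300ld at 1.33 ± 0.26, Pira2 at 0.504 ± 0.19 and Cd200r3 at 0.028 ± 0.033 CPM per kilobase. In isotype libraries Cd300lb (32.8 ± 3.74) and Cd300a (15.4 ± 0.63) came before Pirb (5.48 ± 1.66) and Cd300lf (4.37 ± 2.14), and the other 5 were at 0.670 or less. Cd300a and Pirb overlapped under anti-IL5 and did not in isotype libraries. Lilra6, Cd200r4 and Cd300ld overlapped their neighbours in both arms.

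At stages II and III, Cd300lb and Pirb had the highest means in both arms. Under anti-IL5 they stood at 166 ± 60.5 and 61.0 ± 5.68 CPM per kilobase at stage II and at 407 ± 92.8 and 224 ± 26.8 at stage III. In isotype libraries they stood at 95.8 ± 38.0 and 36.0 ± 13.8 at stage II, where Pirb overlapped Cd300lf (32.6 ± 17.7), and at 270.3 ± 95.3 and 167 ± 15.0 at stage III, where they overlapped. The third place at stage III was held by Lilra6 under anti-IL5 (109 ± 27.1) and by Cd300lf in isotype libraries (87.9 ± 16.3, overlapping Lilra6 at 76.3 ± 21.5).

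At stage IV the order under anti-IL5 was Cd300lb (680.0 ± 65.0), Pirb (234 ± 16.4), Lilra6 (162 ± 10.6), Cd300ld (74.9 ± 10.9), Cd300lf (71.8 ± 18.4), Cd300a (69.4 ± 7.48), Pira2 (20.2 ± 3.83), Cd200r3 (18.8 ± 7.27) and Cd200r4 (15.0 ± 6.16). Neighbours from Cd300ld to Cd300a overlapped, as did those from Pira2 to Cd200r4. In isotype libraries it was Cd300lb (602 ± 92.7), Pirb (247 ± 9.52), Lilra6 (197 ± 31.9), Cd300lf (188 ± 26.1), Cd300ld (126 ± 20.8), Cd300a (74.6 ± 14.6), Pira2 (20.8 ± 4.96), Cd200r4 (17.6 ± 6.55) and Cd200r3 (14.9 ± 6.98). There Lilra6 and Cd300lf overlapped, and Cd300lf, Cd300ld and Cd300a stood apart from one another.

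**Figure D2:**
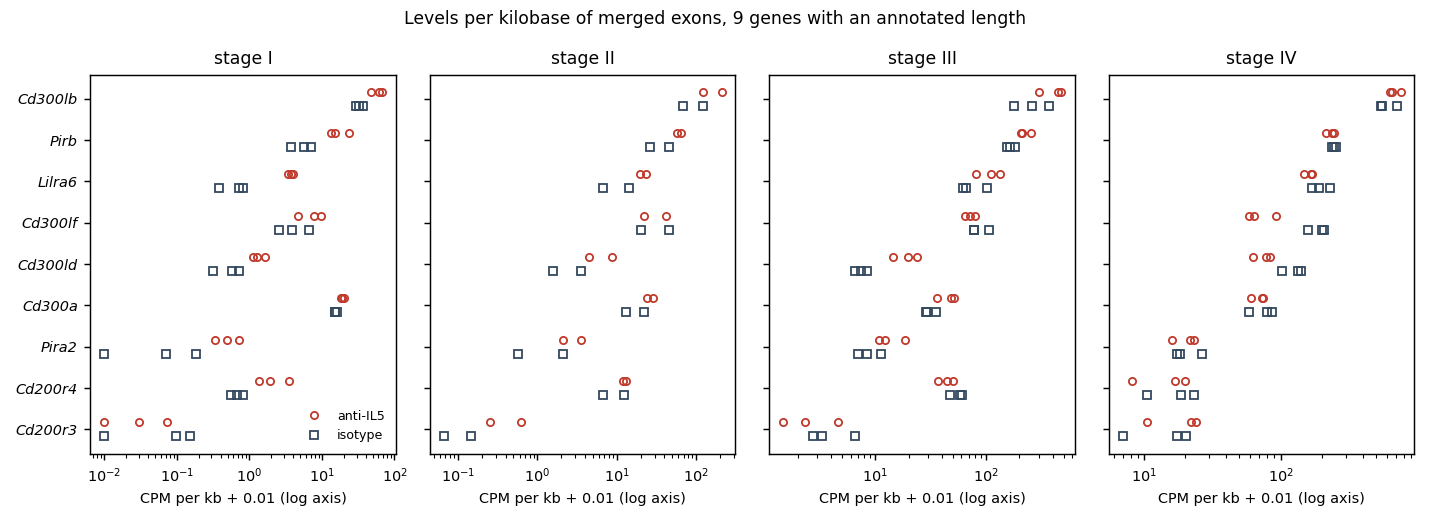
CPM per kilobase of merged exons (+ 0.01, log axis) in each library for the 9 genes with an annotated length, 1 panel per stage, anti-IL5 as red circles above isotype as dark squares. Cd300lb is rightmost at each stage by its mean, and the squares of Cd300lf and Cd300ld lie right of their circles at stage IV.

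Anti-IL5 was set against isotype within each stage, which asks how loss of the cytokine changes each receptor in cells passing the same gates. At stage I, 5 of the 10 members were higher under anti-IL5 and none lower by the test (4.42% of all 12387 genes were called, 2.61% higher). The members' median log2 difference was 1.09, beside 0.02 over all genes. In bulk samples, more cells with a transcript and more of it per cell cannot be told apart.

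Lilra6 had the lowest p of them. Its levels were 12.2, 11.5 and 10.2 CPM under anti-IL5, against 2.44, 1.15 and 2.17 CPM in isotype libraries. The lowest anti-IL5 library thus lay far above the highest isotype one, with a log2 difference of 2.52 ± 0.32 (edgeR adjusted p = 8.93e-05).

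Pirb, its inhibitory counterpart, was at 104, 67.2 and 59.3 CPM under anti-IL5, against 31.4, 16.7 and 25.4 CPM in isotype libraries. The groups did not overlap, and the log2 difference was 1.64 ± 0.23 (edgeR adjusted p = 2.20e-04). The calls of Lilra6 and Pirb held without any 1 library, with adjusted p of at most 0.00160 and 0.00323. Pira2 was at 1.66, 1.14 and 2.43 CPM (51 counts in all) under anti-IL5, against 0.592, 0.208 and 0 CPM (10 counts) in isotype libraries. Its log2 difference was 2.53 ± 0.67 (edgeR adjusted p = 0.0352), and the call was lost in 4 of 6 fits without 1 library (highest edgeR adjusted p 0.148), with limma-voom (adjusted p = 0.126) and with every gene of at least 1 count tested (edgeR adjusted p = 0.0510). Summed to 1 PIR-A row, which joins only the PIR-A rows with Lilra6, the difference was 2.35 ± 0.31 (edgeR adjusted p = 1.28e-04). Under anti-IL5, Lilra6 gave 329 of the summed counts and Pira2 51. Reads shared with Pirb or with the gene model Gm15922 are not recovered by this sum.

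Cd200r4 was at 3.91, 7.14 and 2.73 CPM under anti-IL5, against 1.63, 1.35 and 1.13 CPM in isotype libraries. The groups did not overlap (log2 1.73 ± 0.43, edgeR adjusted p = 0.0259), but the call was lost in 3 of 6 fits without 1 library, those without isotype stage I replicate 2 or 3 or anti-IL5 stage I replicate 2, and with limma-voom (adjusted p = 0.271). Cd300ld differed by 1.35 ± 0.38 (edgeR adjusted p = 0.0472), without overlap. This call was lost in all 6 fits without 1 library (edgeR adjusted p 0.0782 to 0.175), with DESeq2 size factors, with limma-voom and with the replicate block.

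Cd300lb and Cd300a also lay without overlap at stage I. Cd300lb was at 197, 178 and 138 CPM under anti-IL5, against 107, 94.7 and 85.5 CPM in isotype libraries, and missed the threshold (log2 0.83 ± 0.26, edgeR adjusted p = 0.0657). Cd300a was at 86.5, 90.9 and 94.5 CPM, against 76.2, 70.9 and 71.3 CPM (log2 0.32 ± 0.18, edgeR adjusted p = 0.376). In all 7 of 10 members were higher without overlap, beside 14.4% of all genes. Cd300lf overlapped, at 49.2, 23.7 and 39.8 CPM under anti-IL5, against 34.6, 13.01 and 19.8 CPM. Pira6 and Cd200r3 were at or near the floor in both arms, and no fold is given.

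At stage II no member passed the test in edgeR (1.75% of all genes did, and 1678 of 12387 genes had an unadjusted p under 0.05). DESeq2 called 2 members, beside 467 of all genes, and limma-voom 0, beside 177. The members' median log2 difference was 0.78, beside -0.003 over all genes, and 6 of 10 were higher in both anti-IL5 libraries than in both isotype libraries (15.4% of all genes). Pirb was at 290.5 and 254.5 CPM under anti-IL5, against 205 and 117 CPM (log2 0.76 ± 0.27, edgeR adjusted p = 0.181). Lilra6 was at 72.1 and 59.9 CPM, against 43.9 and 20.3 CPM (log2 1.04 ± 0.31, edgeR adjusted p = 0.0919). Cd300ld came nearest to the threshold (log2 1.36 ± 0.36, edgeR adjusted p = 0.053). Without isotype stage II replicate 1, the log2 difference was 1.25 for Pirb and 1.74 for Lilra6, and without replicate 2 it was 0.42 and 0.59. Either fit leaves 1 isotype library at stage II, which is assumed to vary like the other groups.

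At stage III 1 of the 10 members passed, and it was higher under anti-IL5 (6.37% of all genes were called, 1.32% higher). This was Cd300ld, at 38.1, 63.4 and 52.3 CPM under anti-IL5, against 19.9, 22.4 and 17.3 CPM in isotype libraries (log2 1.36 ± 0.26, edgeR adjusted p = 0.00333). The call held in every alternative run, with adjusted p of at most 0.0238 without any 1 library. Pirb lay without overlap (934, 930.3 and 1139.6 CPM, against 732, 821 and 690.5 CPM), but did not pass (log2 0.42 ± 0.21, edgeR adjusted p = 0.259). Cd300a (log2 0.53 ± 0.18, edgeR adjusted p = 0.0774) was the third without overlap, beside 10.9% of all genes higher without overlap. The remaining members overlapped, with log2 differences between -0.58 and 0.65.

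At stage IV 1 member passed, and it was lower under anti-IL5 (1.05% of all genes were called, 0.864% lower). Cd300lf was at 478, 329 and 302 CPM under anti-IL5, against 817, 1068 and 1026 CPM in isotype libraries (log2 -1.39 ± 0.33, edgeR adjusted p = 0.0436). The highest anti-IL5 library lay well below the lowest isotype one. The call was kept in 1 of 6 fits without 1 library (edgeR adjusted p 0.0425 to 0.195, log2 -1.62 to -1.27), and was lost with every gene of at least 1 count tested. Cd300ld, the activating relative, was also lower without overlap, at 208, 221 and 166 CPM, against 272, 375 and 355 CPM (log2 -0.75 ± 0.25, edgeR adjusted p = 0.221). Pira6 was the third gene without overlap, at 14.4, 16.5 and 23.4 CPM, against 26.6, 37.4 and 26.9 CPM (log2 -0.74 ± 0.49, edgeR adjusted p = 0.746), beside 8.73% of all genes lower without overlap. Pirb was at 1062, 963 and 1107 CPM under anti-IL5, against 1062, 1147 and 1107 CPM (log2 -0.08, 95% interval -0.53 to 0.36).

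**Figure D3:**
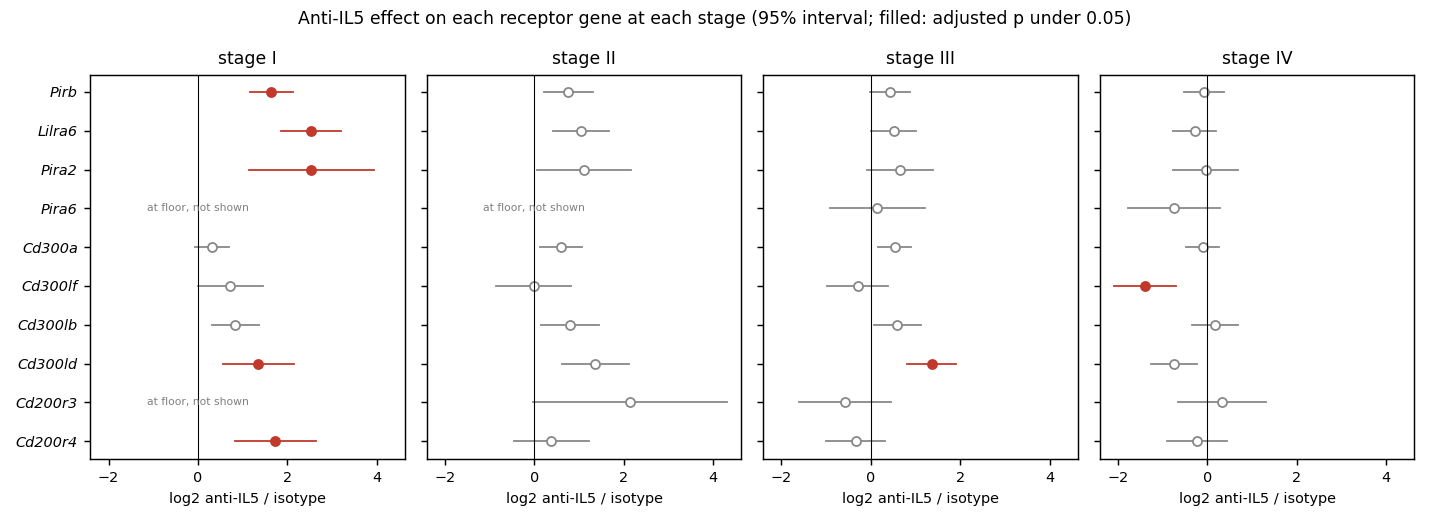
Log2 anti-IL5 over isotype for each gene with its 95% interval, 1 panel per stage, filled red where the edgeR adjusted p is under 0.05 and open grey otherwise. Filled points are 5 at stage I, 0 at stage II, 1 at stage III (Cd300ld) and 1 at stage IV (Cd300lf, left of 0).

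Averaged over the 4 stages, 6 of the 10 members were higher under anti-IL5 and none lower (18.9% of all genes were called, 8.6% higher). The differences were 1.06 ± 0.25 for Pira2, 0.95 ± 0.14 for Lilra6, 0.83 ± 0.16 for Cd300ld, 0.69 ± 0.12 for Pirb, 0.60 ± 0.13 for Cd300lb and 0.33 ± 0.10 for Cd300a, on the log2 scale. Their edgeR adjusted p lay between 7.38e-05 (Lilra6) and 0.0166 (Cd300a). The call of Cd300a was lost without isotype stage II replicate 2 (edgeR adjusted p = 0.0569). Cd300lf, the other inhibitory Cd300 gene, had a mean difference of -0.24 ± 0.18 (edgeR adjusted p = 0.371). This mean treats libraries with equal replicate numbers as independent.

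The effect of anti-IL5 differed between the stages for 3 of the 10 members by the interaction test over all 4 stages (1.07% of all genes). They were Lilra6 (edgeR adjusted p = 0.00501), Cd300ld (edgeR adjusted p = 0.00763) and Pirb (edgeR adjusted p = 0.0280). With limma-voom the calls of Lilra6 (adjusted p = 0.105) and Cd300ld (adjusted p = 0.221) were lost and that of Pirb was kept, while Pirb lost its call in 8 of 22 fits without 1 library (highest edgeR adjusted p 0.0723), each without a library of stage I or IV. Cd300lf (edgeR adjusted p = 0.115) was called with the replicate number as a block (edgeR adjusted p = 0.0289) and with DESeq2 (adjusted p = 0.00705). DESeq2 also called Pira2 (adjusted p = 0.0406) and Cd200r4 (adjusted p = 0.0228). Because PIR-A/B staining set the gates, the interaction and the difference below compare, for Lilra6 and Pirb, cells selected on that staining. The effect at stage IV minus that at stage I was lower for 4 members (0.928% of all genes were called, 0.856% lower). It was log2 -2.81 ± 0.40 for Lilra6 (edgeR adjusted p = 6.78e-04), -1.73 ± 0.31 for Pirb (edgeR adjusted p = 0.0060), -2.11 ± 0.46 for Cd300ld (edgeR adjusted p = 0.0246) and -2.12 ± 0.48 for Cd300lf (edgeR adjusted p = 0.0359). The Cd300ld and Cd300lf calls were lost in 5 and 8 of 12 fits without 1 library. With limma-voom the calls of Lilra6 (adjusted p = 0.0518) and Cd300ld (adjusted p = 0.214) were lost, and that of Cd300lf was lost with every gene of at least 1 count tested (edgeR adjusted p = 0.122).

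Between stages III and IV the effect changed for Cd300ld alone among the 10 (0.638% of all genes were called). It was 1.36 at stage III and -0.75 at stage IV, a difference of -2.12 ± 0.36 (log2 ± SE, edgeR adjusted p = 0.0105), which held in all 12 fits without 1 library. Cd300lf, whose effect was -0.30 ± 0.33 at stage III, did not pass. At stage IV both genes were lower in all 3 anti-IL5 libraries.

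Ratios of Cd300ld and Cd300lb counts to those of the inhibitory Cd300lf followed from these values and are given without a test. Per 100 Cd300lf counts, Cd300ld had 43.5, 54.8 and 67.0 counts (in rising order) at stage IV under anti-IL5, against 33.3, 34.6 and 35.1 in isotype libraries. At stage III the values were 10.3, 12.9 and 19.2 under anti-IL5, against 4.07, 4.29 and 4.91. At stage II they were 10.4 and 10.5, against 4.04 and 4.07. At stages II to IV every anti-IL5 library lay above every isotype library, while at stage I (8.31, 8.67 and 12.4, against 2.35, 7.62 and 14.4) they overlapped. Cd300lb per 100 Cd300lf counts was 397 to 668 at stage IV under anti-IL5, against 156 to 196 in isotype libraries, again without overlap. These ratios depend on the choice of Cd300lf. At stage IV under anti-IL5, Cd300ld had 1742, 2482 and 1843 counts beside 2963, 3880 and 3208 of Cd300a, the other inhibitory Cd300 gene. In isotype libraries it had 3192, 4948 and 3794 beside 3246, 5409 and 4000. Relative to Cd300a, Cd300ld was thus lower under anti-IL5 at stage IV.

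**Figure D4:**
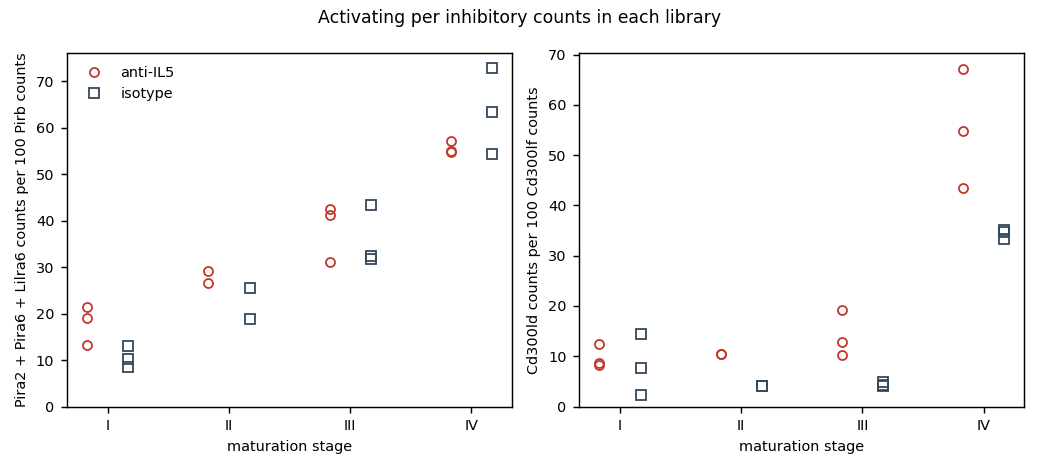
Counts of the activating PIR-A rows per 100 Pirb counts (left) and of Cd300ld per 100 Cd300lf counts (right) in each library by stage, anti-IL5 as red circles left of isotype as dark squares. The right panel shows anti-IL5 libraries at 43.5 to 67.0 and isotype libraries at 33.3 to 35.1 at stage IV.

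Markers of other cells moved with treatment at some stages, and their part in the results above was not tested. The 11 neutrophil markers, all detected, summed to 2020 to 5453 CPM at stage I under anti-IL5, against 2188 to 2870 CPM in isotype libraries. At stage II the sums were 6718 to 6859 CPM, against 3966 to 5605 CPM, and at stage IV 7361 to 8584 CPM, against 4867 to 5897 CPM, without overlap at either stage. Most of these counts came from Retnlg and Ngp, and Ly6g lay between 0.518 and 45.4 CPM over the libraries. The 9 basophil and mast cell markers summed to 43.3 to 55.5 CPM at stage III under anti-IL5, against 189 to 541 CPM in isotype libraries. Of them Tpsb2 and Mcpt4 were at 0 in all 22 libraries. At stage II they summed to 226 to 340.4 CPM, against 391 to 585 CPM. The 10 monocyte and macrophage markers summed to 2763 to 3113 CPM at stage III under anti-IL5, against 3203 to 4427 CPM, without overlap, and to 2424 to 2474 CPM at stage IV under anti-IL5, against 2420 to 3283 CPM. The 6 listed T, NK and innate lymphoid genes summed to 201 to 279.5 CPM at stage II under anti-IL5, against 469 to 517 CPM, and to 16.7 to 19.6 CPM at stage III, against 86.4 to 220.5 CPM. Of these counts 78280 were of Nkg7, a granule gene of killer cells, while Cd3e, Cd3g, Klrb1c and Il7r held 2, 36, 6 and 33 counts over all libraries and Ncr1 held 0.

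Other genes of the pathway were counted over lists, which were also chosen with earlier results of these data known. Of 7 tested members of the same families, 2 were higher at stage I under anti-IL5 (2.61% of all genes were called higher), the Cd300 relatives Cd300c2 (10.2 ± 3.51, against 3.89 ± 1.42 CPM, log2 1.37 ± 0.38, edgeR adjusted p = 0.0426) and Cd300c (0.568 ± 0.41 CPM, against 0 in all 3 isotype libraries). At stage IV 1 was lower (0.864% of all genes), the inhibitory receptor Lilrb4a, at 464 ± 132 CPM, against 933 ± 214 CPM (log2 -1.01 ± 0.24, edgeR adjusted p = 0.0364). Stages II and III had no call. The list's median log2 differences at stages I to IV were 0.98, 0.40, 0.03 and -0.82.

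Of 15 adaptors and kinases of activating receptors, 1 was higher at stage I (2.61% of all genes) and at stage II (1.75% of all genes called in either direction), the Src-family kinase Fgr. At stage I it was at 52.4 ± 8.69 CPM under anti-IL5, against 8.59 ± 3.64 CPM (log2 2.59 ± 0.32, edgeR adjusted p = 5.15e-05). At stage II it was at 229 ± 73.3 CPM, against 80.0 ± 44.3 CPM (log2 1.52 ± 0.35, edgeR adjusted p = 0.0299). None passed at stages III and IV (5 and 2 had an unadjusted p under 0.05). None of 12 phosphatases and other brakes passed at any single stage in edgeR (1, 1, 3 and 0 with an unadjusted p under 0.05 at stages I to IV), nor did any of 8 tested ligand genes (2, 2, 0 and 1).

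Averaged over the stages (18.9% of all genes called, 8.6% higher), 3 of the 15 adaptors and kinases were higher under anti-IL5 and none lower: Fgr (log2 1.23 ± 0.15), the adaptor Hcst (0.39 ± 0.10) and the kinase Syk (0.36 ± 0.11). Of the 12 phosphatases and brakes 1 was higher, the phosphatase Ptpn6 (log2 0.30 ± 0.10, edgeR adjusted p = 0.0334). Of the 8 ligand genes 3 were higher, the MHC class I genes H2-Q4 (log2 1.07 ± 0.33), H2-K1 (0.62 ± 0.19) and H2-D1 (0.48 ± 0.13), and 1 was lower, Cd47 (-0.19 ± 0.06), the ligand of the inhibitory receptor Sirpa. The MHC class I genes are close copies, so their single rows are uncertain. Of the 7 family members Cd300c2 was higher (log2 1.19 ± 0.19), and of the 27 genes of other paired families 8 were higher and 1 lower.

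Of 27 tested genes of other paired receptor families, 7 were higher and none lower at stage I (2.61% of all genes called higher), with a median of 0.48 over the list, beside 0.02 over all genes. The largest differences were those of the inhibitory lectin Clec4a2 (log2 1.94 ± 0.26), the activating Pilrb2 (1.39 ± 0.21) and Pilrb1 (1.24 ± 0.21), and the inhibitory Siglece (1.08 ± 0.30). At stage III the activating Sirpb1b was higher (2.24 ± 1.86 CPM, against 0 in isotype libraries) and the inhibitory Lair1 lower (log2 -1.49 ± 0.36). At stage IV the inhibitory Pilra (log2 -1.41 ± 0.31, edgeR adjusted p = 0.0226) and Siglecg (-1.16 ± 0.19, edgeR adjusted p = 0.00219) were lower.

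Between stages IV and I, 12 of the 15 adaptors and kinases were higher under anti-IL5 and none lower, against 12 higher and 1 lower in isotype libraries. Over all genes 63.5% were called under anti-IL5 and 66.2% in isotype libraries, in either direction, a share that includes genes called lower. The median log2 difference of the 15 was 1.70 under anti-IL5 and 2.09 in isotype libraries, beside -0.06 and -0.04 over all genes. Of the 12 phosphatases and brakes, 9 were higher under anti-IL5 and 10 in isotype libraries, with none lower. Ptpn6, the phosphatase recruited by inhibitory tails, had log2 differences of 1.86 ± 0.19 under anti-IL5 and 2.52 ± 0.19 in isotype libraries. Syk rose by 2.50 ± 0.22 under anti-IL5.

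The genes whose levels ran most like those of the 3 most abundant members were found by Pearson's r of log2 CPM over the 22 libraries among 8420 other genes, as a description of libraries that share stages. For Cd300lb they were Mob3a (0.995), Tnfsf14 (0.994) and Inpp5b (0.993). For Pirb they were Cnn2 (0.995), Vsir (0.995) and Itgb7 (0.993). For Cd300lf they were the immunoglobulin-like receptors Lilrb4a (0.978) and Lilr4b (0.968) and the protease Adam8 (0.966).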

How the data were processed

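The authors deposited raw read counts per gene symbol, 1 table per library, from SMART-Seq v4 cDNA (17 cycles, no strand marks, no molecular barcodes named) and Nextera XT, per the labels' protocols. STAR 2.6.1a, mm10 and DESeq2 stand in the submitters' processing notes, per the labels, with no role. How reads were counted, by which annotation and with what strand setting is not given in the sources used here. A line for reads without a feature (12.7% to 22.1% of counts) and one for ambiguous reads (1.86% to 2.39%) stayed out. Without strand, reads of overlapping genes cannot be told apart. No 2 of the 231 library pairs were identical.

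CPM were computed with TMM-scaled library sizes. All 22 libraries entered 1 edgeR 4.0.16 quasi-likelihood model (R 4.3.3, filterByExpr, robust dispersion, 8 groups). P-values were adjusted by Benjamini and Hochberg over 12387 genes and genes were called under 0.05. Contrasts were anti-IL5 against isotype, stage against stage, and differences of these. The script was tested on simulated data. Alternatives used DESeq2 1.42.0, limma 3.58.1 (voom), other scaling, no filter, a replicate block, summed PIR-A rows, and leaving out each library. Log2 CPM had a prior count of 2. Promoters, positions and exon lengths came from RefSeq and GENCODE M21, and Pira6 had no match there. SE were taken from the p-value and fold change. Floors and CPM of low genes carry counting error only. The table has 0 mitochondrial lines.

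The members and the gene lists were chosen with earlier results of these data known. Named genes are all members, up to 4 called genes of each list by size of change, and the 3 genes most correlated with each of the 3 most abundant members. Equal replicate numbers went together (all 3 correlations of deviations over 0.1) between isotype stages III and IV, 0.124 to 0.208. A replicate block changed no member's call there. They also did so between isotype stages III and I, 0.120 to 0.200, which were compared only as part of the interaction test. Between anti-IL5 stages II and I, both of 2 correlations were over 0.1 (0.133 to 0.160). There too a block changed no tested member's call. Between treatments at stages I, III and IV no correlation was over 0.1.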

Additional observations from a re-analysis of the deposited data

Results flagged for a closer look

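The anti-IL5 effect differed between stages by a test of the difference itself for 4 of the receptor genes, in 8 results from overlapping contrasts of the same fit. Among them Pirb and Lilra6 are PIR genes, and PIR-A/B staining set the gates of the stages compared. The stage by treatment interaction had an edgeR adjusted p of 0.0280 for Pirb, 0.00501 for Lilra6 and 0.00763 for Cd300ld. It did not pass for Cd300lf (edgeR adjusted p = 0.115), and 1.07% of all genes were called. With limma-voom the adjusted p was 0.105 for Lilra6 and 0.221 for Cd300ld, and for Pirb edgeR gave up to 0.0723 without 1 library. The effect at stage IV minus that at stage I, on the log2 scale, was -1.73 for Pirb, -2.81 for Lilra6, -2.11 for Cd300ld and -2.12 for Cd300lf. Of all genes 0.928% were called for this difference. With limma-voom those of Lilra6 (adjusted p = 0.0518) and Cd300ld (adjusted p = 0.214) were no longer called. The Cd300ld and Cd300lf calls were kept in 7 and 4 of 12 fits without 1 library. That of Cd300lf was lost with every gene of at least 1 count tested (edgeR adjusted p = 0.122). The effect at stage IV minus that at stage III was -2.12 for Cd300ld (0.638% of all genes were called). Pirb and Lilra6 were higher under anti-IL5 in 3 of 3 libraries at stage I and overlapped isotype libraries at stage IV, whereas Cd300ld was higher in 3 of 3 at stages I and III and lower in 3 of 3 at stage IV. No library's value was flagged, since groups of 3 or fewer are not tested for outliers.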

How the results depend on the processing

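The number of receptor genes called under anti-IL5 depended on the setting at single stages. At stage I it was 5, 6 with DESeq2, 2 with limma-voom and 2 to 4 without 1 library. At stage II it was 0, 1 with DESeq2 size factors, with total counts alone or with no filter, 2 with DESeq2 and 0 to 6 without 1 library. At stage III it was 1, 2 with DESeq2 and 1 to 2 without 1 library, and at stage IV 1, 0 with no filter, 2 with limma-voom and 0 to 1 without 1 library. The interaction called 3, 6 with DESeq2, 1 with limma-voom and 2 to 4 without 1 library. The mean over stages called 5 or 6 and stage IV against I all 5 in every alternative run. The causes of these changes were not tested. Over all genes, DESeq2 called 964 against 548 at stage I, 467 against 217 at stage II, 1285 against 789 at stage III, 257 against 130 at stage IV (limma-voom 202) and 503 against 133 for the interaction. Without 1 library the counts over all genes lay at 33.6% to 84.9% of those with all libraries at stage I, 17.5% to 198% at stage II, 39.0% to 108% at stage III, 52.3% to 89.2% at stage IV and 37.6% to 165% for the interaction. They lay at 29.3% to 127% for the first isotype step and 33.1% to 97.1% for the first anti-IL5 step, and the shares of all genes printed beside the counts above move with them. The stage II count was 430 without isotype replicate 1 and 38 without isotype replicate 2.

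Signs turned for small values. Cd300lf at stage II (-0.01) was 0.010 with DESeq2 size factors, 0.027 with no filter, 0.0092 with DESeq2, 0.029 with limma-voom, 0.0043 with the replicate block and -0.55 to 0.71 without 1 library. The last anti-IL5 step of Cd300lf (0.01) was -0.040 with total counts alone, -0.00066 with no filter, -0.021 with limma-voom, -0.023 with the replicate block, -0.022 with the block within treatment and -0.22 to 0.13 without 1 library. Without 1 library, the anti-IL5 effect lay between -0.052 and 0.36 for Pira6 at stage III, and at stage IV between -0.15 and 0.17 for Pira2, -0.0048 and 0.63 for Cd200r3, -0.50 and 0.072 for Cd200r4 and -0.25 and 0.015 for Cd300a. The first isotype step of Cd300a lay between -0.23 and 0.50.

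The replicate block left 4 receptor genes called at stage I, 0 at stage II and 1 at each of stages III and IV. Equal numbers between treatments did not go together at stages I, III and IV (correlations 0.0127 to 0.0838). At stage II both pairs gave 0.338, since with 2 libraries a group the deviations mirror each other. This is 1 value, not 2 that agree. The block ended the stage I call of Cd300ld and added Cd300lf to the interaction calls (4 in all). Counts of 10 or fewer, as for Pira2 in isotype stage I libraries, limit what can be seen of low genes.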
